A study of Homo sapiens with 10 samples.

Results

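A set of 47 genes whose products carry out DNA replication was followed through SMARCA4 and SMARCA1 knockdown in VCaP cells. The genes were taken by name, in 10 groups by function: the origin recognition complex (6 genes), licensing factors (3), the MCM2-7 helicase (6), helicase activation (6), polymerase alpha-primase (4), polymerases delta and epsilon (6), the sliding clamp and its loader (6), replication protein A (3), flap removal and ligation (3) and nucleotide supply (4). They are 47 of the 59386 genes counted, and all 47 were among the 16899 genes that passed the filter on low counts. VCaP is a human prostate cancer cell line. The knockdown cells were given 30 pmol of siRNA and harvested after 72 h, and polyadenylated RNA was sequenced. The 10 libraries fall into 5 groups of 2. They are control cells (given as WT in the labels, which do not say whether these cells received any siRNA), cells with siRNA A or siRNA B against SMARCA4, and cells with siRNA A or siRNA C against SMARCA1. SMARCA4 (BRG1) is an ATPase of the SWI/SNF chromatin remodelers and SMARCA1 (SNF2L) is an ATPase of the ISWI remodelers. All libraries come from this single cell line, the knockdowns were transient, and no source says whether the 2 libraries of a group came from separate cultures, so p-values measure only the spread between these libraries.

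DNA replication is prepared in G1, when the origin recognition complex, CDC6 and CDT1 load the MCM2-7 ring onto origins, a step that geminin (GMNN) blocks once S phase begins. In S phase CDC45 and the GINS complex join MCM2-7 to form the active helicase, polymerase alpha-primase lays down primers, and polymerases epsilon and delta copy the leading and lagging strands on the PCNA clamp that replication factor C loads. Most of these genes are transcribed in waves under E2F factors, so their RNA is high in dividing cancer cells.

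Library totals ran from 23898545 to 34667965 counts, and levels are given as counts per 1000000 (CPM) with TMM factors. SMARCA4 itself measured 242 and 268 CPM in the control libraries, 13.3 to 25.2 CPM with its own siRNAs and 228 to 249.7 CPM with the SMARCA1 siRNAs. SMARCA1 measured 32.3 and 31.5 CPM in control, 1.75 to 3.40 CPM with its own siRNAs and 57.4 to 83.8 CPM with the SMARCA4 siRNAs. Each target was thus depleted in its own 4 libraries, and SMARCA1 rose under SMARCA4 knockdown (log2 fold change 1.07 ± 0.18, adjusted p = 0.001). All 11 markers of VCaP prostate epithelium passed the filter on low counts, among them HOXB13, a transcription factor of prostate epithelium, at 306 to 489 CPM across the libraries. Of these markers 2 were lower and 4 higher in SMARCA4 knockdown (log2 fold changes from -0.86 to 1.66), against 22.3% and 22.8% of all genes tested. In SMARCA1 knockdown 5 were lower and 2 higher (-1.78 to 1.99), against 23% and 23.8%. Set against each other, 5 were higher in SMARCA4 than in SMARCA1 knockdown, against 16.3% of all genes. In contrast, the leukocyte markers PTPRC and CD3E were at or near 0. Of the 8 markers of other cell types, ALB was detected at 44.7 to 139.6 CPM and COL1A1 at 4.14 to 18.5 CPM. Their summed level was 143 CPM in both controls, 98.4 to 147 CPM in SMARCA4 and 61.3 to 68.1 CPM in SMARCA1 knockdown. Interferon response genes separated every knockdown library from both controls: all 15 of the list were higher in each knockdown. Their summed level was 265 and 269.8 CPM in control against 13850 to 35640 CPM in SMARCA4 and 19800 to 37150 CPM in SMARCA1 knockdown. Between the knockdowns these ranges overlapped, and 12 of the 15 were not called. The 2 libraries of SMARCA1 siRNA A stood apart from each other by gene length. Replicate 1 was higher than replicate 2 by a median log2 of 0.26 for 3799 genes with under 2.5 kb of exon and shifted by -0.29 for 3563 genes with over 8 kb. In the other groups these medians were between -0.04 and 0.06. The part of the interferon response, of other cell types or of this length difference in the results was not tested.

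Most replication genes fell when SMARCA4 was depleted, and fewer fell, by less, when SMARCA1 was depleted. In SMARCA4 knockdown 34 of 47 genes were lower than control, none was higher and 13 were not called, by edgeR's quasi-likelihood test at an adjusted p below 0.05, and the median log2 fold change was -0.66 (from -1.18 for MCM6 to 0.17 for RFC1). A value written with ± below is such a log2 fold change, or a log2 difference between groups, with its standard error. That error was derived from the fit, as the absolute log2 value divided by the square root of the test's F statistic. Among all 16899 genes tested, 22.3% were called lower and 22.8% higher in that comparison, with a median of 0.00. None of the 47 was called higher in SMARCA4 knockdown by DESeq2 either, and none had an unadjusted p below 0.05 in that direction. In SMARCA1 knockdown 23 genes were lower, 2 were higher (ORC6 and RFC1) and 22 were not called, with a median of -0.29, against 23% lower, 23.8% higher and a median of -0.00 over all genes. The SMARCA1 count changed most with the controls: it was 13 lower and 1 higher without control replicate 1, 15 lower and 2 higher without control replicate 2, and 24 lower and 6 higher without SMARCA1 siRNA A replicate 2. Without SMARCA1 siRNA A replicate 1 it was 26 lower, and without either SMARCA1 siRNA C library 18 lower. Both knockdowns were set against the same 2 control libraries, so their lists are not independent of each other. The direct comparison, in which the control cancels, placed 30 of the 47 lower in SMARCA4 than in SMARCA1 knockdown and 1 higher (PRIM2), with a median difference of -0.35, where 19.1% of all genes were lower and 16.3% higher.

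Library by library the pattern was graded. The summed level of the 47 genes was 4309 and 4377 CPM in control, 2863 and 2841 CPM with SMARCA4 siRNA A and 2759 and 2681 CPM with SMARCA4 siRNA B. It was 3835 and 3731 CPM with SMARCA1 siRNA A and 3448 and 3435 CPM with SMARCA1 siRNA C. All 4 SMARCA4 libraries thus lay below all 4 SMARCA1 libraries, which in turn lay below both controls. Gene by gene, all 4 SMARCA4 libraries lay below both controls for 35 of 47 genes (29% of all genes tested), and all 4 SMARCA1 libraries did so for 24 (29.1% of all genes). The 4 SMARCA4 libraries lay below the 4 SMARCA1 libraries for 22 (13.8% of all genes). The share of the 47 that lay below both controls in SMARCA1 knockdown was closer to the background than in SMARCA4 knockdown. In the other direction, all 4 SMARCA1 libraries lay above both controls for 4 of the 47 (29.1% of all genes). All 4 SMARCA4 libraries did so for 0 (29.5% of all genes). The 7 proliferation markers, which include the mitotic genes CCNB1, AURKA and PLK1, moved the same way, with 7 of 7 lower in SMARCA4 and 5 of 7 lower in SMARCA1 knockdown. In bulk RNA fewer cells in S phase and less RNA in each cell cannot be told apart.

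**Figure D1:**
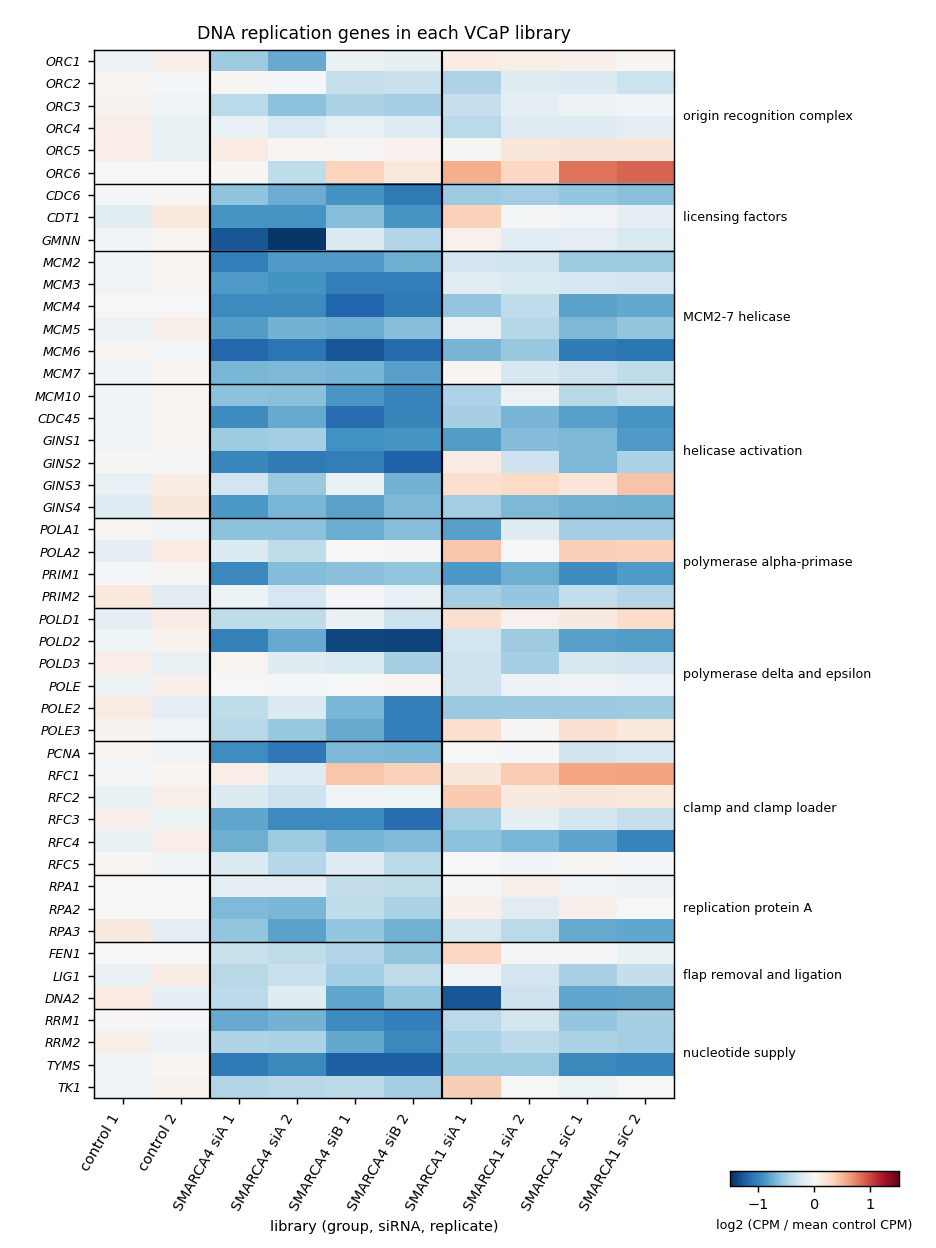
Heat map of the 47 DNA replication genes (rows, grouped by function) in the 10 VCaP libraries (columns); colour is log2 of a library's CPM over the mean CPM of the 2 controls, blue lower and red higher. The 4 SMARCA4 columns are blue in most rows, the 4 SMARCA1 columns are paler, and the ORC6 and RFC1 rows are red in SMARCA1 knockdown.

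E2F-type sequences stood before the start sites of many of these genes. Promoters of 40 of the 47 genes were matched by symbol in the RefSeq table (GRCh38). The 250 bases before each start were searched on both strands for the letters TTTGGCGC, TTTCGCGC, TTTCCCGC and TTTGCCGC. The first and the second of these overlap in the run TTTGGCGCGAAA when read on opposite strands. At least 1 of them occurred in 14 of the 40 promoters (35%), against 3.4% of 27305 genes with a promoter in the table and 5.44% of the 11677 of those that were tested here. By expression, 12 of 29 promoters of genes called lower in SMARCA4 knockdown held a match and 2 of the 11 others did. For SMARCA1 knockdown the counts were 4 of 17 and 10 of 23, and for genes lower in SMARCA4 than in SMARCA1 knockdown 11 of 27 and 3 of 13. CCAAT, the NF-Y box, occurred in 24 of 40 (60%, against 37% of all genes and 41.15% of those tested here). The E-box CACGTG was found in 6 of 40 (15%, against 7.73% and 10.9%). The CHR letters TTTGAA or TTCGAA were found in 3 of 40 (7.5%, against 17.2% and 13.3%). A match is a string of letters and does not show that a factor binds there.

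The stretches below show the E2F-type matches, in capitals, in 4 genes called lower in each knockdown (MCM3, MCM6, POLA1 and TYMS), in 3 called lower in SMARCA4 but not in SMARCA1 knockdown (GMNN, MCM7 and PCNA), and in POLE, which was called in neither. Each is written 5′ to 3′ on the gene's strand, ends before the RefSeq start, and lies, in the same order and with the strand in parentheses, at chr6:52284873-52284952 (-), chr2:135876552-135876631 (-), chrX:24693745-24693824 (+), chr18:657578-657652 (+), chr6:24775297-24775376 (+), chr7:100101541-100101620 (-), chr20:5126638-5126717 (-) and chr12:132687343-132687396 (-) of GRCh38.
MCM3: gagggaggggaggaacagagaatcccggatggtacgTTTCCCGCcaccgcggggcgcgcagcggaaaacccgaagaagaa
MCM6: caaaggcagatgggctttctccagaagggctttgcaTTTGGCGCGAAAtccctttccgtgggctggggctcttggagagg
POLA1: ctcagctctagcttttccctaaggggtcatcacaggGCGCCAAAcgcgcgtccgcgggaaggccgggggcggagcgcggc
TYMS: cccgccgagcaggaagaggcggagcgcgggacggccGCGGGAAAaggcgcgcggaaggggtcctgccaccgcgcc
GMNN: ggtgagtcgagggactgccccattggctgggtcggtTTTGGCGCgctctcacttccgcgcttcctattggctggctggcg
MCM7: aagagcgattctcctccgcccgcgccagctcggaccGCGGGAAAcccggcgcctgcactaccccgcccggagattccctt
PCNA: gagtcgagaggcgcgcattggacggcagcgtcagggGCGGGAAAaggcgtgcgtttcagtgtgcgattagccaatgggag
POLE: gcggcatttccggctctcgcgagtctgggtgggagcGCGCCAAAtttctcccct
MCM6 held 4 matches in 2 overlapping pairs, the only such pairs among the 8, with first bases 152, 148, 90 and 86 bases before the start. The stretch shows the first pair as 1 run of 12 capitals. MCM7 held a second match that begins 9 bases before its start and is outside the stretch. The POLE match lies 18 bases before the start. The sorting by SMARCA1 call was in part a matter of the threshold. In SMARCA1 knockdown MCM3 was called at log2 -0.23 (adjusted p = 0.0413) and MCM7 was not at log2 -0.22 (adjusted p = 0.089). With SMARCA1 siRNA C alone MCM7 and PCNA were called (adjusted p = 0.0324 and 0.0433). With SMARCA1 siRNA A alone MCM3 and POLA1 were not (adjusted p = 0.143 and 0.0595).

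The origin recognition complex, the platform that marks origins, had the median nearest to 0 of the 10 groups in SMARCA4 knockdown: 2 of its 6 genes were lower, 4 were not called, and the median log2 fold change was -0.16. ORC3 was the lowest of the 6, at 31.3 and 28.8 CPM in control and 22.7 and 19.6 CPM with SMARCA4 siRNA A and 21.6 and 21.2 CPM with SMARCA4 siRNA B. In SMARCA1 knockdown ORC3 stood at 23.7 and 27.5 CPM with siRNA A and 28.5 and 29.2 CPM with siRNA C. Its SMARCA4 libraries lay below every other library (log2 fold change -0.50 ± 0.11, adjusted p = 0.00388), while the SMARCA1 libraries overlapped the controls (log2 -0.15 ± 0.11, adjusted p = 0.289). ORC1, the subunit whose level cycles, measured 18.5 and 20.6 CPM in control and 13.5 and 11.6 CPM with SMARCA4 siRNA A and 18.2 and 17.8 CPM with SMARCA4 siRNA B. ORC1 levels after SMARCA1 depletion were 21.1 and 21 CPM with siRNA A and 20.5 and 19.96 CPM with siRNA C. It was low with siRNA A of SMARCA4 and only just under the controls with siRNA B. Its call in SMARCA4 knockdown (log2 -0.38 ± 0.11, adjusted p = 0.0149) rested on siRNA A (log2 -0.64 ± 0.12, adjusted p = 0.0037, against log2 -0.12 ± 0.12, adjusted p = 0.466 with siRNA B).

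ORC6, the smallest subunit, rose in SMARCA1 knockdown. It measured 29.4 and 29.7 CPM in control and 30.2 and 22.7 CPM with SMARCA4 siRNA A and 37.2 and 32.98 CPM with SMARCA4 siRNA B. With SMARCA1 siRNAs ORC6 came to 43.1 and 36.6 CPM with siRNA A and 51.8 and 54.1 CPM with siRNA C. All 4 SMARCA1 libraries lay above both controls (log2 fold change 0.64 ± 0.13, adjusted p = 0.00346), the SMARCA4 libraries overlapped the controls (log2 0.05 ± 0.13, adjusted p = 0.804), and the 2 knockdowns differed by log2 -0.59 ± 0.11, adjusted p = 0.00234. ORC2 went the other way, from 78.4 and 76.7 CPM in control to 56.1 to 68.3 CPM in SMARCA1 knockdown (log2 -0.29 ± 0.10, adjusted p = 0.0362). That call was lost on leaving out any 1 of 8 libraries, all but the 2 SMARCA1 siRNA A ones (adjusted p = 0.064 to 0.215). ORC4 (log2 -0.16 and -0.23) and ORC5 (log2 0.06 and 0.15 in SMARCA4 and SMARCA1 knockdown) were not called. ORC5 had 42.3 to 48.6 CPM in control, 46.05 to 49.4 CPM in SMARCA4 and 46.1 to 52.1 CPM in SMARCA1 knockdown. The ORC1 call in SMARCA4 knockdown was lost without either control, SMARCA4 siRNA A replicate 2 or either SMARCA4 siRNA B library (adjusted p = 0.0558 to 0.184), and that of ORC3 without control replicate 1 (adjusted p = 0.0702). The ORC3 difference between the knockdowns (log2 -0.35 ± 0.09, adjusted p = 0.0123) was lost without SMARCA4 siRNA A replicate 2, SMARCA4 siRNA B replicate 2 or SMARCA1 siRNA C replicate 2 (adjusted p = 0.0509 to 0.0569).

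The 3 licensing factors all fell in SMARCA4 knockdown, with a median log2 fold change of -0.82, and all 3 were lower than in SMARCA1 knockdown. CDT1, which brings MCM2-7 to the origin, measured 21.7 and 26.9 CPM in control and 13.1 and 13.1 CPM with SMARCA4 siRNA A and 15.6 and 13.1 CPM with SMARCA4 siRNA B. With SMARCA1 depleted, CDT1 measured 30.8 and 23.9 CPM with siRNA A and 23.5 and 22.1 CPM with siRNA C. The 4 SMARCA4 libraries were the lowest of all (log2 -0.82 ± 0.14, adjusted p = 0.000962) and the SMARCA1 libraries straddled the controls (log2 0.04 ± 0.14, adjusted p = 0.832). CDT1 thus had the largest difference between the knockdowns of the 47 genes (log2 -0.86 ± 0.12, adjusted p = 0.000505). CDC6, the ATPase that works with ORC, was lower in both comparisons: 108 and 109.5 CPM in control, 52.1 to 71.7 CPM in SMARCA4 knockdown (log2 -0.82 ± 0.09, adjusted p = 8.25e-05) and 70.5 to 75.8 CPM in SMARCA1 knockdown (log2 -0.57 ± 0.09, adjusted p = 0.000779). Its difference between the knockdowns (log2 -0.25 ± 0.08, adjusted p = 0.0249) was lost without replicate 2 of either SMARCA4 siRNA or without either SMARCA1 siRNA C library (adjusted p = 0.0845 to 0.122).

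GMNN, the inhibitor of CDT1, depended on which SMARCA4 siRNA was used. Its level was 52.99 and 55.8 CPM in control and 22.4 and 19.7 CPM with SMARCA4 siRNA A and 46.9 and 40.1 CPM with SMARCA4 siRNA B. In SMARCA1 knockdown GMNN stood at 56.7 and 48.5 CPM with siRNA A and 49.5 and 46.5 CPM with siRNA C. The siRNA A libraries lay far below the rest, and the siRNA B libraries lay between them and the controls. Against control the log2 fold change was -1.37 ± 0.13, adjusted p = 9.65e-05 with siRNA A and log2 -0.32 ± 0.13, adjusted p = 0.0655 with siRNA B, and the 2 siRNAs differed by log2 1.05 ± 0.13, adjusted p = 0.00483. The pooled value for SMARCA4 knockdown (log2 -0.85 ± 0.11, adjusted p = 0.000216) therefore averages 2 unlike groups.

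All 6 genes of the MCM2-7 ring, the motor of the replicative helicase, fell in SMARCA4 knockdown, 5 fell in SMARCA1 knockdown, and all 6 were lower in SMARCA4 than in SMARCA1 knockdown. In SMARCA1 knockdown the 2 siRNAs differed in their counts, with 2 of the 6 called lower with siRNA A (median log2 fold change -0.27) and all 6 with siRNA C (median -0.59). The direct comparison of these siRNAs called 0 of the 6. The group medians were -0.91 and -0.43, and the median difference between the knockdowns was -0.43. MCM6 was the lowest in both: 137 and 133 CPM in control and 59.8 and 63.2 CPM with SMARCA4 siRNA A and 55.6 and 60.4 CPM with SMARCA4 siRNA B. MCM6 levels after SMARCA1 depletion were 83.2 and 91.3 CPM with siRNA A and 64.7 and 63.8 CPM with siRNA C. Every knockdown library lay far below the controls, at 44.2% of the control mean with SMARCA4 (log2 -1.18 ± 0.09, adjusted p = 1.04e-05) and 56.1% with SMARCA1 depleted (log2 -0.85 ± 0.09, adjusted p = 8.69e-05). The 2 SMARCA1 siRNA C libraries came near the highest SMARCA4 one.

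MCM7 had the smallest fitted fall in the group. It was apart from MCM5 in SMARCA4 knockdown and from MCM3 in SMARCA1 knockdown by less than the standard errors. MCM7 went from 320.0 and 339 CPM in control to 204 and 206 CPM with SMARCA4 siRNA A and 203 and 188 CPM with SMARCA4 siRNA B. With SMARCA1 siRNAs MCM7 came to 337 and 278 CPM with siRNA A and 263 and 254 CPM with siRNA C. The SMARCA4 libraries were all well under the controls (log2 -0.72 ± 0.10, adjusted p = 0.000298), and SMARCA1 siRNA A replicate 1 sat among the controls, leaving SMARCA1 knockdown uncalled (log2 -0.22 ± 0.10, adjusted p = 0.089). Without that library the adjusted p in SMARCA1 knockdown was 0.00725. The other 4 subunits had log2 fold changes of -0.87 (MCM2), -0.95 (MCM3), -1.04 (MCM4) and -0.73 (MCM5) in SMARCA4 knockdown and -0.41, -0.23, -0.63 and -0.44 in SMARCA1 knockdown. MCM3 showed the largest gap between the knockdowns within the ring (log2 -0.72 ± 0.07, adjusted p = 0.00011), with 126 and 133 CPM in control, 63.4 to 72.1 CPM in SMARCA4 and 107 to 115 CPM in SMARCA1 knockdown.

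**Figure D2:**
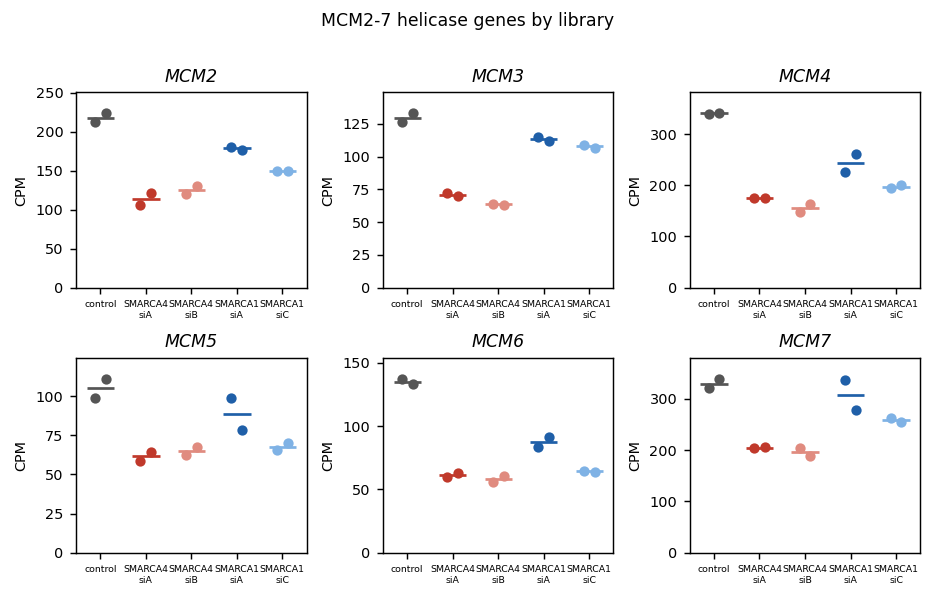
Level of each MCM2-7 gene in CPM (vertical axis, from 0) by group (horizontal axis); points are libraries and bars are means of 2. In all 6 panels the 4 SMARCA4 points lie below the controls, and the SMARCA1 points lie above the SMARCA4 points except in MCM5, where the 2 overlap, with MCM6 reaching 63.8 CPM with SMARCA1 siRNA C.

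The 6 subunits are used in equal numbers in the ring, yet their RNA levels per length were unequal. As CPM per kb of annotated exon, the control means were 75.1 for MCM7, 48.9 for MCM4, 46.3 for MCM2, 35.6 for MCM3, 32.7 for MCM6 and 14.4 for MCM5. In SMARCA4 knockdown the same order held except that MCM2 (25.4 ± 2.16, SD, n = 4) and MCM4 (23.8 ± 1.83, SD, n = 4) changed places, by less than their spread. MCM7 stayed the highest and MCM5 the lowest in every group, at 45.7 and 8.71 CPM per kb in SMARCA4 and 64.6 and 10.7 CPM per kb in SMARCA1 knockdown. Exon lengths are of all annotated exons of a gene and can exceed the transcript in use.

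Of the 6 helicase activation genes 5 fell in SMARCA4 knockdown (median log2 fold change -0.77) and 4 in SMARCA1 knockdown (median -0.49). GINS2, a subunit of the GINS complex, was the lowest in SMARCA4 knockdown, with 11.8 and 11.6 CPM in control and 5.94 and 5.60 CPM with SMARCA4 siRNA A and 5.69 and 5.05 CPM with SMARCA4 siRNA B. With SMARCA1 depleted, GINS2 measured 12.8 and 9.46 CPM with siRNA A and 7.33 and 8.45 CPM with siRNA C. The SMARCA4 libraries were at about equal level (log2 -1.07 ± 0.15, adjusted p = 0.000294). The SMARCA1 siRNA A libraries lay on either side of the controls and the siRNA C libraries below them (log2 -0.32 ± 0.15, adjusted p = 0.0959). Without SMARCA1 siRNA A replicate 1 the adjusted p became 0.0152. GINS1 fell in both knockdowns: 64.9 and 68.9 CPM in control, 35.6 to 47.1 CPM in SMARCA4 (log2 -0.71 ± 0.10, adjusted p = 0.000298) and 37.2 to 42.7 CPM in SMARCA1 knockdown (log2 -0.75 ± 0.10, adjusted p = 0.000271). The difference between them (log2 0.04 ± 0.08, adjusted p = 0.717) was not called. GINS4 had log2 fold changes of -0.76 and -0.66.

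GINS3 was the only gene of the group with a fitted rise in SMARCA1 knockdown, although neither knockdown was called. Its libraries measured 13.2 and 15.4 CPM in control and 11.7 and 9.75 CPM with SMARCA4 siRNA A and 13.3 and 8.77 CPM with SMARCA4 siRNA B. In SMARCA1 knockdown GINS3 stood at 16.9 and 17.6 CPM with siRNA A and 16.2 and 19.1 CPM with siRNA C. All 4 SMARCA1 libraries lay above both controls (log2 0.29 ± 0.17, adjusted p = 0.195), as they did for 29.1% of all genes tested. For GINS3, 3 of the 4 SMARCA4 libraries lay below both (log2 -0.39 ± 0.17, adjusted p = 0.0882), and the direct difference was called (log2 -0.68 ± 0.14, adjusted p = 0.00494). Without SMARCA4 siRNA B replicate 1 the adjusted p of GINS3 in SMARCA4 knockdown was 0.0232. CDC45, the partner that joins GINS and MCM2-7, fell from 60.1 and 63.5 CPM to 28.03 to 36.6 CPM in SMARCA4 (log2 -0.95 ± 0.10, adjusted p = 7.57e-05) and 33.5 to 43.9 CPM in SMARCA1 knockdown (log2 -0.72 ± 0.10, adjusted p = 0.000443). MCM10, which helps start the helicase, had log2 fold changes of -0.78 and -0.32.

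In polymerase alpha-primase, the enzyme that starts each new strand, the 4 subunits split. PRIM1, the catalytic primase subunit, fell in both knockdowns and lay at 34.4 and 35.1 CPM in control and 17.8 and 22.2 CPM with SMARCA4 siRNA A and 22.6 and 23.02 CPM with SMARCA4 siRNA B. PRIM1 levels after SMARCA1 depletion were 19.1 and 20.9 CPM with siRNA A and 18.1 and 19.4 CPM with siRNA C. All 8 knockdown libraries lay well below both controls (log2 -0.70 ± 0.11, adjusted p = 0.000672 for SMARCA4 and log2 -0.85 ± 0.11, adjusted p = 0.000284 for SMARCA1), and the knockdowns did not differ by the test (log2 0.14 ± 0.09, adjusted p = 0.254). POLA1, the catalytic polymerase subunit, was lower in both knockdowns (log2 -0.65 ± 0.15, adjusted p = 0.00491 and log2 -0.49 ± 0.15, adjusted p = 0.0204), and its 2 SMARCA1 siRNA A libraries were far apart, at 36.7 and 56.9 CPM.

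PRIM2, the large primase subunit, was the only one of the 47 that was higher in SMARCA4 than in SMARCA1 knockdown (log2 0.36 ± 0.10, adjusted p = 0.0232). It measured 17.3 and 13.8 CPM in control and 14.7 and 12.9 CPM with SMARCA4 siRNA A and 15.3 and 14.3 CPM with SMARCA4 siRNA B. With SMARCA1 siRNAs PRIM2 came to 10.9 and 10.4 CPM with siRNA A and 12.03 and 11.4 CPM with siRNA C. The SMARCA4 libraries overlapped the controls (log2 -0.12 ± 0.13, adjusted p = 0.472) and the SMARCA1 libraries lay below them (log2 -0.47 ± 0.12, adjusted p = 0.0111). Without control replicate 1 the SMARCA1 call was lost (adjusted p = 0.206). The difference between the knockdowns was lost without SMARCA4 siRNA A replicate 1, either SMARCA4 siRNA B library or either SMARCA1 siRNA C library (adjusted p = 0.0514 to 0.085). POLA2, the B subunit, was not called in either knockdown (log2 -0.15 ± 0.14 and 0.28 ± 0.14) but was lower with SMARCA4 than with SMARCA1 depleted (log2 -0.44 ± 0.11, adjusted p = 0.0142). That call was lost without replicate 2 of either SMARCA4 siRNA or either SMARCA1 siRNA C library (adjusted p = 0.0503 to 0.0573). Its adjusted p in SMARCA1 knockdown was 0.0106 without SMARCA1 siRNA A replicate 2.

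In polymerases delta and epsilon, which copy most of the genome, 3 of 6 genes fell in each knockdown, and the subunits ranged from strongly lowered to flat. POLD2, an accessory subunit of polymerase delta, measured 351 and 381 CPM in control and 181 and 216 CPM with SMARCA4 siRNA A and 142 and 140.1 CPM with SMARCA4 siRNA B. With SMARCA1 depleted, POLD2 measured 299 and 251 CPM with siRNA A and 208 and 205 CPM with siRNA C. It fell in both knockdowns (log2 -1.13 ± 0.10, adjusted p = 3.33e-05 and log2 -0.62 ± 0.11, adjusted p = 0.00118) and was lower with SMARCA4 siRNA B than with siRNA A (log2 -0.49 ± 0.13, adjusted p = 0.0471). The call between the siRNAs was lost without either control, SMARCA4 siRNA A replicate 2, either SMARCA4 siRNA B library or either SMARCA1 siRNA C library (adjusted p = 0.0911 to 0.305). It was also lost with upper-quartile factors, library totals, a minimum count of 30 or the compared groups alone (adjusted p = 0.0569 to 0.0883). POLE, the catalytic subunit of polymerase epsilon, measured 108 and 121 CPM in control and 114 and 112 CPM with SMARCA4 siRNA A and 114 and 117 CPM with SMARCA4 siRNA B. In SMARCA1 knockdown POLE stood at 92.2 and 108 CPM with siRNA A and 111 and 108 CPM with siRNA C. All 10 libraries lay between 92.2 and 121 CPM, and neither log2 fold change was called (log2 0.00 ± 0.10, adjusted p = 0.991 and log2 -0.13 ± 0.10, adjusted p = 0.292).

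POLE3, a histone-fold subunit of polymerase epsilon, separated the knockdowns almost as widely as CDT1. It measured 148 and 136 CPM in control and 106 and 96.1 CPM with SMARCA4 siRNA A and 84.04 and 69.7 CPM with SMARCA4 siRNA B. POLE3 levels after SMARCA1 depletion were 169 and 143 CPM with siRNA A and 166 and 159 CPM with siRNA C. SMARCA4 libraries were below both controls (log2 -0.69 ± 0.11, adjusted p = 0.000764), SMARCA1 libraries overlapped them (log2 0.16 ± 0.11, adjusted p = 0.256, and 0.0442 for the adjusted p without SMARCA1 siRNA A replicate 2), and the difference was log2 -0.85 ± 0.09, adjusted p = 0.000195. POLD1, the catalytic subunit of polymerase delta, had fitted values on either side of control (log2 -0.29 ± 0.11, adjusted p = 0.0572 and log2 0.18 ± 0.12, adjusted p = 0.221) and a called difference (log2 -0.48 ± 0.09, adjusted p = 0.00384). Its adjusted p in SMARCA4 knockdown was 0.0277 without SMARCA1 siRNA A replicate 1 and 0.0396 without replicate 2. The second subunit of polymerase epsilon, POLE2, was the lowest expressed of the group at 6.65 to 7.95 CPM in control and fell in both (log2 -0.56 and -0.55). In SMARCA4 knockdown POLE2 was called with siRNA B (log2 -0.84 ± 0.18, adjusted p = 0.00357) and not with siRNA A (log2 -0.28 ± 0.17, adjusted p = 0.236). The difference between these siRNAs was not called for POLE2 (log2 -0.56 ± 0.18, adjusted p = 0.0881). POLD3 fell in SMARCA1 knockdown (log2 -0.33 ± 0.12, adjusted p = 0.0468) and not by the test in SMARCA4 knockdown (log2 -0.21 ± 0.12, adjusted p = 0.195).

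**Figure D3:**
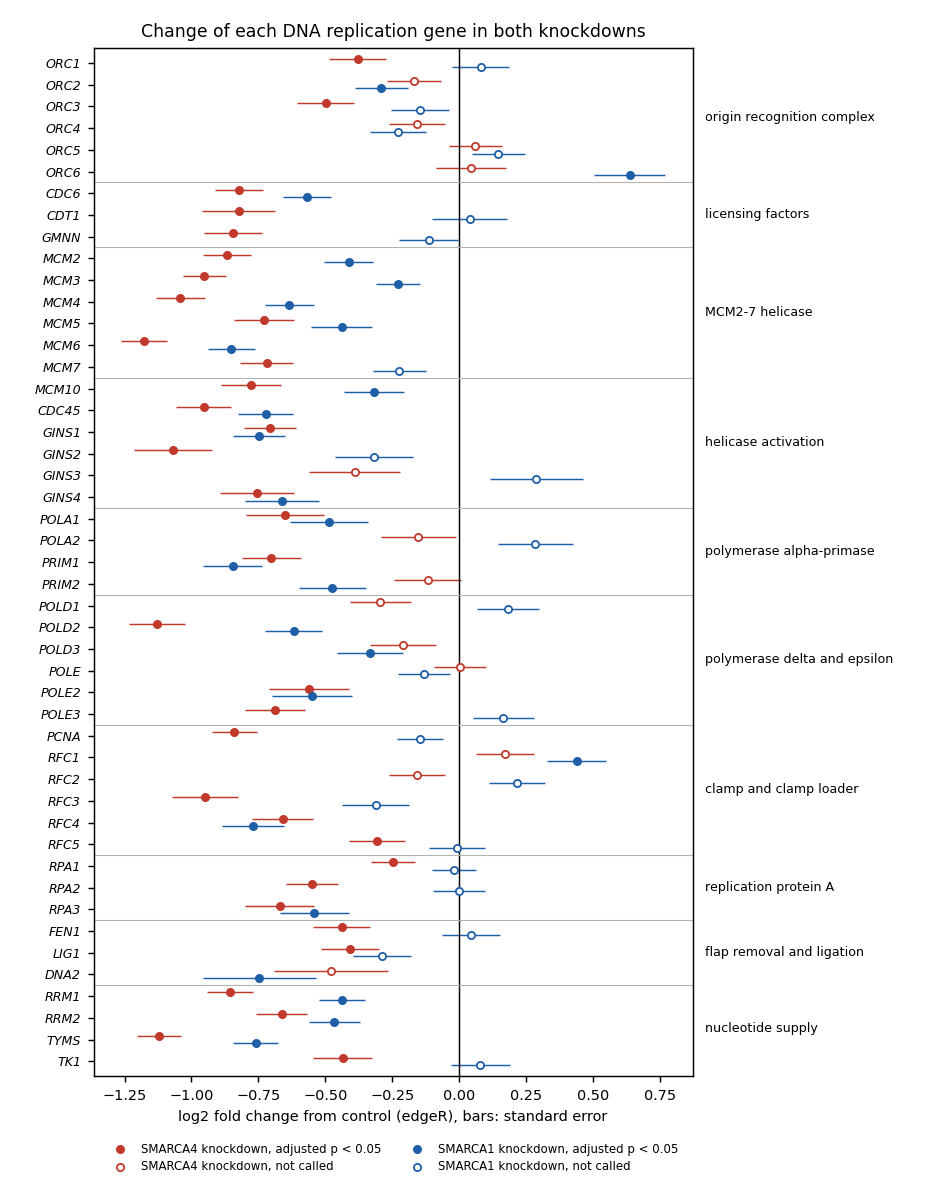
Log2 fold change from control (horizontal axis) of the 47 genes, in rows grouped by function, in SMARCA4 (red) and SMARCA1 knockdown (blue); bars are standard errors, filled points have an adjusted p below 0.05. Red points lie left of blue points in most rows, and the filled blue points right of 0 are ORC6 at 0.64 and RFC1 at 0.44.

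PCNA, the sliding clamp, had the highest RNA level per length of the 47 genes in control (186 CPM per kb, against 1.96 for GINS4, the lowest). It measured 267 and 254 CPM in control and 137 and 124 CPM with SMARCA4 siRNA A and 163 and 163 CPM with SMARCA4 siRNA B. With SMARCA1 siRNAs PCNA came to 260.5 and 255 CPM with siRNA A and 212 and 218 CPM with siRNA C. The SMARCA4 libraries lay below all others (log2 -0.84 ± 0.08, adjusted p = 5.1e-05), while SMARCA1 siRNA A was at the control level and siRNA C somewhat below it (log2 -0.15 ± 0.09, adjusted p = 0.183). The difference between the knockdowns was log2 -0.69 ± 0.07, adjusted p = 0.00015.

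The 5 genes of replication factor C, the clamp loader, did not move as a unit. RFC3 fell most in SMARCA4 knockdown, from 49.01 and 44.1 CPM in control to 27.1 and 24.1 CPM with SMARCA4 siRNA A and 24.3 and 21.1 CPM with SMARCA4 siRNA B. With SMARCA1 depleted, RFC3 measured 32.5 and 42.3 CPM with siRNA A and 38.5 and 36.8 CPM with siRNA C (log2 -0.95 ± 0.12, adjusted p = 0.000229 and log2 -0.31 ± 0.13, adjusted p = 0.0643 for SMARCA4 and SMARCA1). Its adjusted p in SMARCA1 knockdown was 0.00733 without SMARCA1 siRNA A replicate 2. RFC4 fell in both, at 19.9 to 22.9 CPM in control, 12.9 to 14.6 CPM in SMARCA4 and 10.8 to 13.9 CPM in SMARCA1 knockdown (log2 -0.66 ± 0.11, adjusted p = 0.00121 and log2 -0.77 ± 0.11, adjusted p = 0.000559). Its difference between them (log2 0.11 ± 0.10, adjusted p = 0.397) was not called. RFC5 fell in SMARCA4 knockdown alone by the test (log2 -0.31 ± 0.10, adjusted p = 0.0342, against log2 -0.01 ± 0.10, adjusted p = 0.957), with a called difference between the knockdowns (log2 -0.30 ± 0.09, adjusted p = 0.0216). Neither SMARCA4 siRNA by itself gave a call for RFC5 (adjusted p = 0.066 with siRNA A and 0.0718 with siRNA B).

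RFC1, the large subunit, rose in SMARCA1 knockdown: 112 and 117 CPM in control and 123 and 100.3 CPM with SMARCA4 siRNA A and 153 and 146 CPM with SMARCA4 siRNA B. In SMARCA1 knockdown RFC1 stood at 129.5 and 149 CPM with siRNA A and 173 and 174 CPM with siRNA C. All 4 SMARCA1 libraries lay above both controls (log2 0.44 ± 0.11, adjusted p = 0.00837), although siRNA A by itself was not called (log2 0.28 ± 0.12, adjusted p = 0.105) and siRNA C was (log2 0.60 ± 0.12, adjusted p = 0.00351). Also above both controls were the SMARCA4 siRNA B libraries (log2 0.38 ± 0.12, adjusted p = 0.0299), whereas siRNA A of SMARCA4 straddled the controls (log2 -0.04 ± 0.12, adjusted p = 0.835). The pooled SMARCA4 value was not called (log2 0.17 ± 0.11, adjusted p = 0.225). Between the siRNAs of a target RFC1 was not called either (adjusted p = 0.071 for SMARCA4 and 0.238 for SMARCA1). Without control replicate 1 the SMARCA1 call was lost (adjusted p = 0.0635). The difference between the knockdowns (log2 -0.27 ± 0.09, adjusted p = 0.0368) was lost without any 1 of 7 libraries (the controls, both SMARCA4 siRNA B, both SMARCA1 siRNA C and SMARCA4 siRNA A replicate 2, adjusted p = 0.0654 to 0.139). RFC2 lay above both controls in all 4 SMARCA1 libraries, as did 29.1% of all genes tested, without being called (log2 0.22 ± 0.11, adjusted p = 0.118). RFC2 was lower with SMARCA4 than with SMARCA1 depleted (log2 -0.37 ± 0.09, adjusted p = 0.00803).

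**Figure D4:**
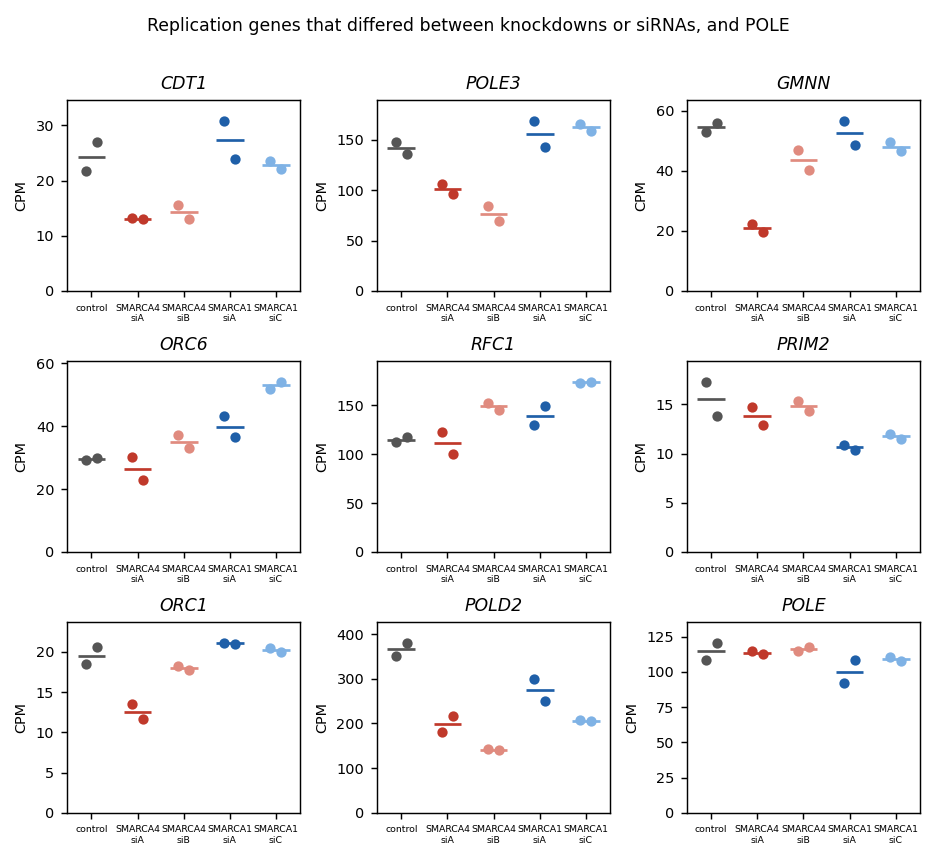
CPM (vertical axis, from 0) of 9 replication genes by group (horizontal axis); points are libraries and bars are means of 2. CDT1 and POLE3 are low in SMARCA4 libraries and near control in SMARCA1 libraries, ORC6 and RFC1 are high in SMARCA1 libraries, GMNN and ORC1 are lowest with SMARCA4 siRNA A, and POLE lies between 92.2 and 121 CPM throughout.

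The 3 subunits of replication protein A, which coats single-stranded DNA, were all lower in SMARCA4 knockdown, by different amounts. RPA2 measured 49.1 and 49.8 CPM in control and 31.3 and 30.8 CPM with SMARCA4 siRNA A and 37.9 and 35.6 CPM with SMARCA4 siRNA B. RPA2 levels after SMARCA1 depletion were 52.2 and 44.3 CPM with siRNA A and 51.97 and 49.1 CPM with siRNA C. Its SMARCA4 libraries were all below its SMARCA1 libraries and controls, which overlapped each other (log2 -0.55 ± 0.10, adjusted p = 0.0013, log2 -0.00 ± 0.10, adjusted p = 0.994, difference log2 -0.55 ± 0.08, adjusted p = 0.000836). RPA3, the smallest subunit, fell in both (log2 -0.67 ± 0.13, adjusted p = 0.00213 and log2 -0.54 ± 0.13, adjusted p = 0.00676), from 15.6 and 12.7 CPM in control to 8.14 to 9.43 CPM and 8.21 to 12 CPM. Both RPA3 calls were lost without control replicate 1 (adjusted p = 0.0574 and 0.127).

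RPA1, the large subunit, moved least of the 3 in SMARCA4 knockdown, with 185 and 183 CPM in control and 168 and 168 CPM with SMARCA4 siRNA A and 144 and 142 CPM with SMARCA4 siRNA B. With SMARCA1 siRNAs RPA1 came to 181 and 195 CPM with siRNA A and 177 and 174 CPM with siRNA C. Its call in SMARCA4 knockdown (log2 -0.25 ± 0.08, adjusted p = 0.0323) was lost on leaving out any 1 library other than the 2 of SMARCA1 siRNA A (adjusted p = 0.0781 to 0.233). The same held for its difference between the knockdowns (log2 -0.23 ± 0.07, adjusted p = 0.0255, then adjusted p = 0.0557 to 0.112).

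Among the genes that finish lagging strand fragments, FEN1, the flap nuclease, and LIG1, the ligase, fell in SMARCA4 knockdown. FEN1 measured 74.2 and 75.3 CPM in control and 59.05 and 57.2 CPM with SMARCA4 siRNA A and 55.1 and 49.6 CPM with SMARCA4 siRNA B. With SMARCA1 depleted, FEN1 measured 92.7 and 73.9 CPM with siRNA A and 73.05 and 69.7 CPM with siRNA C. The SMARCA4 libraries lay below the rest (log2 -0.44 ± 0.11, adjusted p = 0.00756), and SMARCA1 siRNA A replicate 1 was the highest of all (log2 0.05 ± 0.11, adjusted p = 0.753 for SMARCA1). LIG1 had 48.4 to 56.5 CPM in control, 36.9 to 41.7 CPM in SMARCA4 (log2 -0.41 ± 0.11, adjusted p = 0.0122) and 37.3 to 50.5 CPM in SMARCA1 knockdown (log2 -0.29 ± 0.11, adjusted p = 0.0513). The FEN1 call was lost without either control (adjusted p = 0.0715 and 0.0752). The LIG1 call was lost without control replicate 2, SMARCA4 siRNA A replicate 1 or SMARCA4 siRNA B replicate 1 (adjusted p = 0.0571 to 0.207). LIG1 was called in SMARCA1 knockdown without SMARCA1 siRNA A replicate 1 (adjusted p = 0.0151).

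DNA2, a nuclease and helicase, fell in SMARCA1 knockdown (log2 -0.75 ± 0.21, adjusted p = 0.0155), and its value in SMARCA4 knockdown was not called (log2 -0.48 ± 0.21, adjusted p = 0.0908). It measured 31.03 and 26.2 CPM in control and 21.8 and 25.1 CPM with SMARCA4 siRNA A and 16.7 and 19.2 CPM with SMARCA4 siRNA B. In SMARCA1 knockdown DNA2 stood at 11.8 and 23.03 CPM with siRNA A and 16.6 and 16.8 CPM with siRNA C. By log2 ratio the 2 SMARCA1 siRNA A libraries were further apart for DNA2 than for any other of the 47 genes, and all 8 knockdown libraries lay below both controls. Without SMARCA1 siRNA A replicate 1 or replicate 2 DNA2 was also called in SMARCA4 knockdown (adjusted p = 0.005 and 0.00727), and without replicate 2 the knockdowns differed (adjusted p = 0.00213). DNA2 was called in SMARCA4 knockdown also with no filter on low counts (adjusted p = 0.00899), with the compared groups alone (0.0106) and with siRNA B alone (0.0496). Without control replicate 1 the SMARCA1 call was lost (adjusted p = 0.152).

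The 4 nucleotide supply genes fell in SMARCA4 knockdown and 3 of them in SMARCA1 knockdown. TYMS, thymidylate synthase, measured 97.9 and 103 CPM in control and 47.9 and 51.2 CPM with SMARCA4 siRNA A and 42.8 and 42.9 CPM with SMARCA4 siRNA B. TYMS levels after SMARCA1 depletion were 69.1 and 68.98 CPM with siRNA A and 51.2 and 50.3 CPM with siRNA C. All knockdown libraries lay below the controls, at 46.1% of the control mean in SMARCA4 (log2 -1.12 ± 0.08, adjusted p = 1.03e-05) and 59.7% in SMARCA1 knockdown (log2 -0.76 ± 0.08, adjusted p = 0.000115). RRM1 and RRM2, the subunits of ribonucleotide reductase, had log2 fold changes of -0.86 and -0.66 in SMARCA4 and -0.44 and -0.47 in SMARCA1 knockdown. TK1, the salvage thymidine kinase, measured 159.8 and 172 CPM in control, 118 to 127 CPM in SMARCA4 (log2 -0.44 ± 0.11, adjusted p = 0.00901) and 157 to 214 CPM in SMARCA1 knockdown (log2 0.08 ± 0.11, adjusted p = 0.583). Its SMARCA4 call was lost without either control (adjusted p = 0.0563 and 0.114), and without SMARCA1 siRNA A replicate 2 it was called higher in SMARCA1 knockdown (adjusted p = 0.0458).

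Of 8 further nucleotide supply genes, 5 fell and 1 rose in SMARCA4 knockdown, and 6 fell and 1 rose in SMARCA1 knockdown. SAMHD1, which breaks down deoxynucleotides and is also an interferon-induced gene, was the one that rose, from 111 and 107 CPM to 1144 and 796 CPM with SMARCA4 siRNA A and 983 and 1038 CPM with SMARCA4 siRNA B. With SMARCA1 depleted, SAMHD1 measured 972 and 1267 CPM with siRNA A and 1257 and 1206 CPM with siRNA C (log2 3.18 ± 0.18, adjusted p = 2.87e-06 and log2 3.43 ± 0.18, adjusted p = 2.17e-06). Its 8 knockdown libraries were the same ones in which the 15 interferon response genes were high, and their part in this rise was not tested. The difference of SAMHD1 between the knockdowns (log2 -0.25 ± 0.12, adjusted p = 0.143) was called without SMARCA4 siRNA A replicate 1 (adjusted p = 0.0229) or SMARCA1 siRNA A replicate 1 (adjusted p = 0.0468).

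**Figure D5:**
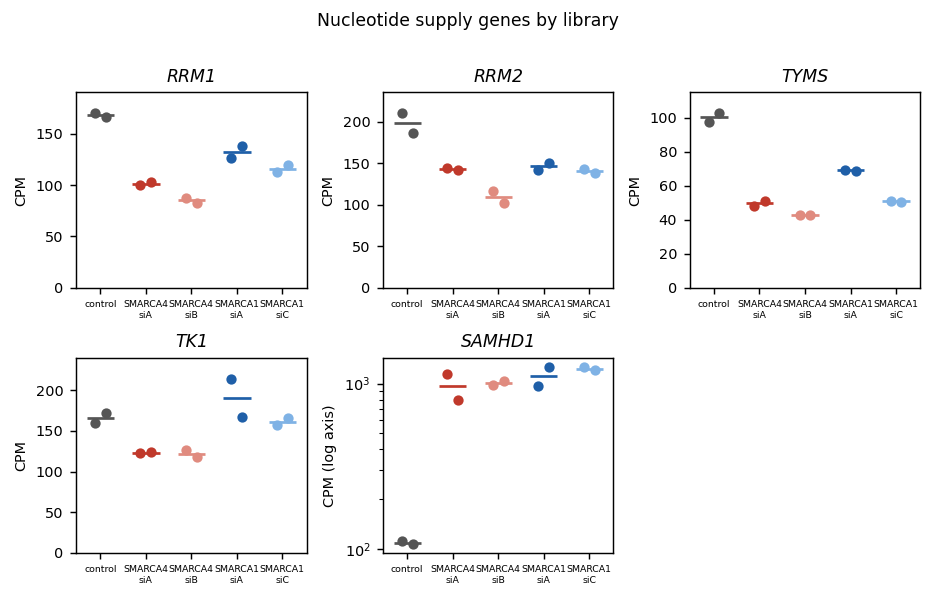
CPM of 5 nucleotide supply genes by group; points are libraries, bars are means of 2, and the vertical axis starts at 0 except for SAMHD1, which has a log axis. RRM1, RRM2 and TYMS are below control in all knockdown libraries, TK1 in the SMARCA4 libraries, and SAMHD1 rises from at most 111 CPM in control to at least 796 CPM.

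A wider list of 60 genes of the same pathway moved mostly in the same direction, by less. Of the 59 that were tested (RNASEH2A was at most 0.376 CPM and was not), 37 were lower and 4 higher in SMARCA4 knockdown (median log2 fold change -0.50), against 22.3% and 22.8% of all genes tested. In SMARCA1 knockdown 22 were lower and 6 higher (median -0.16), against 23% and 23.8%, so the lower share was nearer the background than in SMARCA4 knockdown. In the direct comparison 24 were lower in SMARCA4 than in SMARCA1 knockdown and 4 were higher (19.1% and 16.3% of all genes). By role, 8 of 10 firing kinase and firing factor genes, 5 of 8 fork protection genes, 8 of 13 E2F and RB factor genes and 5 of 7 S-phase cyclin and kinase genes were lower in SMARCA4 knockdown. In SMARCA1 knockdown 4, 3, 4 and 3 of them were lower. Of the chromatin assembly genes 3 of 6 were lower in SMARCA4 knockdown, while in SMARCA1 knockdown 0 were lower (0 also at an unadjusted p below 0.05) and 1 was higher, CHAF1B, a subunit of the CAF-1 histone chaperone (log2 0.51 ± 0.13, adjusted p = 0.00942). In the direct comparison 5 of 6 were lower in SMARCA4 than in SMARCA1 knockdown. UHRF1, which brings the maintenance DNA methyltransferase to replicated DNA, was an example, chosen after its values were seen. It measured 81.4 and 93.5 CPM in control, 40.6 to 49.3 CPM in SMARCA4 (log2 -0.97 ± 0.10, adjusted p = 6.9e-05) and 79.9 to 105 CPM in SMARCA1 knockdown (log2 0.00 ± 0.10, adjusted p = 0.997).

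CCNA2, the S-phase cyclin A2, was among the lowest of the wider list, with 104 and 89.8 CPM in control and 26.3 and 23.99 CPM with SMARCA4 siRNA A and 38.5 and 39.8 CPM with SMARCA4 siRNA B. In SMARCA1 knockdown CCNA2 stood at 55.03 and 66.5 CPM with siRNA A and 47.8 and 49.6 CPM with siRNA C. Both siRNAs of SMARCA4 brought it below every SMARCA1 library (log2 -1.63 ± 0.11, adjusted p = 5.52e-06, log2 -0.83 ± 0.11, adjusted p = 0.000258, difference log2 -0.80 ± 0.09, adjusted p = 0.000241). TOP2A, the topoisomerase that untangles replicated DNA, fell to 44.6% and 52.1% of its control mean (log2 -1.20 ± 0.12, adjusted p = 5.64e-05 and log2 -0.96 ± 0.12, adjusted p = 0.000253). Its SMARCA4 value averages 351 and 400 CPM with siRNA A (log2 -0.89) and 240 and 253 CPM with siRNA B (log2 -1.50). Without SMARCA1 siRNA A replicate 1 TOP2A also differed between the knockdowns (adjusted p = 0.00574). SKP2, a subunit of the ubiquitin ligase that removes CDT1 and p27, fell further in SMARCA1 than in SMARCA4 knockdown (log2 -0.94 ± 0.12, adjusted p = 0.000296 against log2 -0.61 ± 0.12, adjusted p = 0.00306). Its libraries lay at 66.4 to 73.5 CPM in control, 38.9 to 52.5 CPM in SMARCA4 and 28.6 to 39.8 CPM in SMARCA1 knockdown. The SKP2 call in SMARCA4 knockdown was lost without control replicate 1 (adjusted p = 0.06). Its difference between the knockdowns (log2 0.34 ± 0.10, adjusted p = 0.0312) was lost without either SMARCA4 siRNA A library, SMARCA4 siRNA B replicate 2 or either SMARCA1 siRNA C library (adjusted p = 0.0547 to 0.096).

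Among the genes that rose were DBF4B and POLD4. DBF4B, a second activator of the CDC7 kinase, measured 22.9 and 23 CPM in control and 47.7 and 34.9 CPM with SMARCA4 siRNA A and 46.8 and 47.2 CPM with SMARCA4 siRNA B. DBF4B levels after SMARCA1 depletion were 34.9 and 31.1 CPM with siRNA A and 46.5 and 46.9 CPM with siRNA C. All 8 knockdown libraries lay above the controls (log2 0.94 ± 0.13, adjusted p = 0.000349 and log2 0.77 ± 0.13, adjusted p = 0.00112), and without SMARCA4 siRNA A replicate 2 the knockdowns differed (adjusted p = 0.0444). POLD4, the smallest subunit of polymerase delta, rose to 10.2 to 13.2 CPM in SMARCA4 and 12.3 to 20.2 CPM in SMARCA1 knockdown from 7.95 and 7.58 CPM (log2 0.55 ± 0.20, adjusted p = 0.0448 and log2 1.10 ± 0.20, adjusted p = 0.00167). This subunit thus moved opposite to POLD2. The POLD4 call in SMARCA4 knockdown was lost on leaving out either control, either SMARCA4 siRNA A library, SMARCA4 siRNA B replicate 1 or either SMARCA1 siRNA C library (adjusted p = 0.0501 to 0.179). The difference between the knockdowns (log2 -0.55 ± 0.15, adjusted p = 0.0196) was lost without SMARCA4 siRNA A replicate 1, SMARCA4 siRNA B replicate 2 or SMARCA1 siRNA C replicate 1 (adjusted p = 0.0592 to 0.0849).

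The 16 replication genes that the rule for named genes does not cover are given with values here for completeness and were chosen after their values were seen. Of their calls, and those of UHRF1, 22 of 36 passed with any 1 library left out. In SMARCA4 knockdown the calls of POLA1 and POLE2 were lost without control replicate 1 (adjusted p = 0.0661 and 0.166), and that of RFC5 without any 1 of 7 libraries, all but SMARCA4 siRNA A replicate 1 and both SMARCA1 siRNA A ones (adjusted p = 0.0582 to 0.249). In SMARCA1 knockdown the calls of MCM3 and MCM10 were lost without any 1 of 8 libraries, all but the 2 of SMARCA1 siRNA A (adjusted p = 0.0846 to 0.273 and 0.0676 to 0.224). The POLD3 call was lost without any 1 library other than SMARCA1 siRNA A replicate 1 (adjusted p = 0.0623 to 0.375), and the POLA1 call without either control or either SMARCA1 siRNA C library (adjusted p = 0.0511 to 0.155). Control replicate 2 alone decided MCM2, MCM5 and GINS4 in SMARCA1 knockdown (adjusted p = 0.0667, 0.135 and 0.0801 without it), and control replicate 1 alone decided POLE2 and RRM2 (adjusted p = 0.163 and 0.0652 without it). Between the knockdowns the MCM5 call was lost without any 1 library other than SMARCA1 siRNA A replicate 2 (adjusted p = 0.065 to 0.135). The RFC5 call was lost without replicate 2 of either SMARCA4 siRNA or either SMARCA1 siRNA C library (adjusted p = 0.0664 to 0.105).

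Each siRNA of a target was also set against control by itself. SMARCA4 siRNA A had 31 of the 47 genes lower (15.8% of all genes tested), and SMARCA4 siRNA B had 33 (21.9%). SMARCA1 siRNA A had 16 lower (16.3%), and SMARCA1 siRNA C had 25 (21.5%). With SMARCA1 siRNA A the share of the 47 was above the background by less than with the others.

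Between the SMARCA4 siRNAs 3 of the 47 differed (6.2% of all genes tested did), namely GMNN and ORC1, which were lower with siRNA A, and POLD2, which was lower with siRNA B, at a share near the background. The ORC1 call was lost without the same 7 libraries as that of POLD2 (adjusted p = 0.0663 to 0.239) and with the compared groups alone (0.0881), and the GMNN call without SMARCA4 siRNA A replicate 2 (adjusted p = 0.0567). Leaving out 1 library changed that count to between 0 and 12, and it was 0 without SMARCA4 siRNA A replicate 2. It was 1 without either control, either SMARCA4 siRNA B or either SMARCA1 siRNA C library, 5 without SMARCA4 siRNA A replicate 1, and 12 without either SMARCA1 siRNA A library. Between the SMARCA1 siRNAs edgeR called none of the 47 (0.0118% of all genes tested), and DESeq2 called 2. At an unadjusted p below 0.05 in edgeR, 9 of the 47 were lower and 2 higher with siRNA C. Of all 16899 genes tested, 1210 were lower and 1688 higher at that limit. Without SMARCA1 siRNA A replicate 1 the edgeR count of called genes was 2, and without replicate 2 it was 8. For DESeq2 and for fits with a library left out, the share of all genes was not taken.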

How the data were processed

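RNA from 10 VCaP libraries was sequenced as strand-specific paired-end polyadenylated libraries (NEB Ultra II Directional). The deposited files hold raw counts per gene, made by the authors with HISAT2 2.1.0 and featureCounts 1.5.2 on GRCh38 per the labels; the annotation release is not given in the sources used here. Groups were taken from the sample titles. Counts of genes with at least 10 counts in enough libraries and 15 in all (edgeR 4.0.16 filterByExpr in R 4.3.3) were TMM-scaled and fitted with edgeR's quasi-likelihood test over all 10 libraries as 5 groups; a knockdown is the mean of its 2 siRNA groups. P-values were Benjamini-Hochberg adjusted over all 16899 genes. The fit was tested on simulated counts. Replicates differed by more than counting noise (chi-square per gene 3.8 for SMARCA1 siRNA C to 60.6 for SMARCA1 siRNA A), and 3 counts equal 0.0865 to 0.126 CPM. All 5 groups shared 1 estimate of the spread per gene, so leaving out a library of a group could move calls between other groups. The 47 genes and all lists were chosen with earlier results of these data known, so no count over a list is independent evidence. The genes named are the lowest and highest of each group in each knockdown, those called higher, and those that differed most between knockdowns or siRNAs; some genes of the wider lists are not reported here. DESeq2 1.42.0, other scalings and filters, a replicate block and leaving out each library or siRNA were alternatives.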

Additional observations from a re-analysis of the deposited data

Results flagged for a closer look

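In 7 of 94 groups of 4 libraries (47 genes in each knockdown) 1 library stood apart from the other 3 by Dixon's 95% limit, where chance flags about 1 in 20 groups. SMARCA1 siRNA A replicate 1 was the one for 3 genes: ORC5 at 46.1 CPM (the others 51.1 to 52.1), POLE at 92.2 CPM (the others 108 to 111) and RFC2 at 73.6 CPM (the others 61.7 to 62.8). In SMARCA4 knockdown CDT1 was 15.6 CPM in siRNA B replicate 1 (the others 13.1 CPM each), MCM7 was 188 CPM in siRNA B replicate 2 (the others 203 to 206), and PRIM1 was 17.8 CPM in siRNA A replicate 1 (the others 22.2 to 23.0). POLE2 in SMARCA1 siRNA C replicate 2 was 5.04 CPM against 4.95 to 4.96, a gap of under 0.1 CPM.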

How the results depend on the processing

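The counts of genes lower in SMARCA4 knockdown (34), in SMARCA1 knockdown (23) and in SMARCA4 against SMARCA1 knockdown (30), and the 2 medians, stayed within 1.5 times or the spread under DESeq2, 3 other scalings, 2 other filters, a fit of the compared groups alone and, for the 2 knockdowns, each siRNA alone. The 3 genes that differed between the SMARCA4 siRNAs became 6 under DESeq2 and 1 with the compared groups alone, and the 0 between the SMARCA1 siRNAs became 2 under DESeq2 and 3 with no filter on low counts; the cause was not tested. Leaving out 1 library gave 25 to 36 genes lower in SMARCA4 knockdown, 13 to 26 in SMARCA1 knockdown, 23 to 31 between them, 0 to 12 between the SMARCA4 siRNAs, 0 to 8 between the SMARCA1 siRNAs, and medians of -0.655 to -0.535 and -0.297 to -0.24. The SMARCA1 count fell to 13 without control replicate 1 and to 15 without control replicate 2.

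With replicate number as a block, 34 genes were lower in SMARCA4 knockdown, 22 in SMARCA1 knockdown and 30 between them, 3 differed between the SMARCA4 siRNAs and 0 between the SMARCA1 siRNAs. The numbers are not known to mark a shared culture, and same-numbered libraries correlated at -0.103 to 0.362 in their deviations from group means, so the pairing was not used.

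Other settings also moved single calls (adjusted p in parentheses). With no filter on low counts the SMARCA4 calls of RPA1 (0.198) and ORC1 (0.0688), the SMARCA1 call of ORC2 (0.0913) and the differences between the knockdowns of CDC6 (0.107), RFC1 (0.0645) and RPA1 (0.14) were lost, and that of SAMHD1 was gained (0.0498). With the compared groups alone ORC2 (0.0739) and the RFC1 difference (0.0536) were lost and POLD1 was gained in SMARCA4 knockdown (0.0405). Upper-quartile factors lost POLD4 (0.0688) and gained POLD1 (0.0411) in SMARCA4 knockdown, and RFC3 was gained in SMARCA1 knockdown with them (0.0307), with library totals (0.0372) and with a minimum count of 30 (0.0468). Library totals also gained LIG1 there (0.046). With siRNA A alone RPA1 (0.324), POLD4 (0.138) and SKP2 (0.0524) were lost in SMARCA4 knockdown and ORC2 (0.0589) and RPA3 (0.132) in SMARCA1 knockdown. With siRNA B alone ORC2 was gained in SMARCA4 knockdown (0.0386). With siRNA C alone ORC2 was lost (0.0897) and MCM7 (0.0324), GINS2 (0.0213) and LIG1 (0.0222) were gained in SMARCA1 knockdown.

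Named genes that changed sign were in no case called. In SMARCA4 knockdown POLE was -0.0362 with upper-quartile factors, -0.000385 with library totals and -0.0138 with siRNA A alone, where ORC6 was -0.158 and RFC1 -0.0394. In SMARCA1 knockdown RPA2 was 0.00162 with no filter, 0.000739 with the compared groups alone and 0.0316 with siRNA C alone, RPA1 was 0.0322 with siRNA A alone, and with siRNA C alone CDT1 was -0.0927, FEN1 -0.0662 and TK1 -0.04. Leaving out 1 library also turned some signs, with a range of -0.00684 to 0.201 for ORC5, -0.0254 to 0.176 for ORC6, -0.245 to 0.0924 for PRIM2, -0.233 to 0.00944 for POLA2 and -0.035 to 0.11 for POLE in SMARCA4 knockdown. In SMARCA1 knockdown the ranges were -0.0795 to 0.221 for CDT1, -0.02 to 0.0161 for RPA1, -0.0635 to 0.0835 for RPA2, -0.0416 to 0.15 for FEN1 and -0.0167 to 0.192 for TK1.

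With 2 libraries a group, small changes such as those of RPA1, ORC1 and ORC2 are near the limit of these data, and genes under about 10 CPM, such as POLE2 and GINS4, rest on the fewest counts. All knockdown libraries share the interferon response that the controls lack, so siRNA exposure and depletion of the target cannot be told apart against control.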
